A study of Homo sapiens with 4 samples.

Results

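The 610 loci described here are synthetic transcripts built around adenosines with the motif GGACU that the submitters had found to carry the mark in HEK293T cells, which derive from human embryonic kidney. Members were chosen by class and sequence alone: the m6A class of the deposited table, with GGACT (T written for U) at positions 49 to 53 and the selected adenosine at position 51. They make up 610 of the 1988 loci of that class and 1830 of the 11999 oligonucleotides, because each locus was carried by 3 oligonucleotides that share the sequence and differ in a tag. The methylated group holds 2 libraries of the RNA pool after incubation with recombinant METTL3–METTL14 complex, and the unmethylated group holds 2 libraries of the same pool incubated without it. Both groups share everything else: RNA made by in vitro transcription, no cells, an antibody against m6A, and miCLIP2, in which reverse transcription stops at the crosslinked antibody and so marks a single nucleotide. The question of the design was whether the writer complex itself prefers certain sequences, and the comparison is of the counts at the selected adenosine between the groups.

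N6-methyladenosine (m6A) is the most abundant internal modification of messenger RNA. METTL3 is the catalytic subunit of the writer complex and METTL14 helps to hold the RNA substrate. The complex acts on adenosines in the DRACH context (D stands for any base but C, R for a purine and H for any base but G), of which GGACU is a strong form, and the mark is read by proteins such as those of the YTH family, which act on RNA decay, splicing and translation. Because GGACU was shared by all members, differences between them lie outside the motif.

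The windows below show 30 nucleotides of the loci on which the results turn, from position 37 to 66 of the deposited sequence, 5′ to 3′, with the motif in capitals. They are given by gene with the position of the selected adenosine as the table gives it. The first 4 are among the loci with the highest level at the adenosine and a large difference between the groups, the next 2 had a high level in both groups, and RARG had no count at the adenosine without enzyme. The last 7 are members that share a gene with another locus shown.
COA5, chr2:98599999: aaatctataaaaGGACTctggtcttcccag
CLSTN3, chr12:7158154: gacatgggagaaGGACTttctgggaacaca
DHX38, chr16:72100506: ggaggtggatgaGGACTttgaagaggacaa
MCM3AP, chr21:46284417: agcctaatgaaaGGACTgaaaaggaaggag
ARFGAP1, chr20:63288126: ctgggcattcttGGACTcaaggccggggct
No single gene, chrX:40172442: tctccccgacccGGACTcttccctggcgca
RARG, chr12:53211418: gagcctgggtttGGACTctaaaatctcagc
COA5, chr2:98608320: tctgctgcagtcGGACTgtgtggtccaggt
ING5, chr2:241725222: gcgaccttgcagGGACTcgccgccgcgacc
ING5, chr2:241728935: agcagccctgccGGACTtggcctcctgtcc
PKD1, chr16:2108811: cctgaggcctggGGACTaccgcgtgcaggt
PKD1, chr16:2111525: gaggagctccgcGGACTcagcgtggacatg
SON, chr21:33551606: aactagcactatGGACTcccagatgttagc
SON, chr21:33551486: atccaacaccatGGACTcccagatgttagc

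The deposited values are raw counts of stops per nucleotide. The libraries held 13110615 and 13265092 counts in the methylated group and 10483825 and 12028474 counts in the unmethylated group, of which the member sequences took 15.98% and 16.18% against 15.16% and 14.79%. A member locus had a median of 1055.5 and 1137 counts over its 141 positions in methylated libraries and 804 and 798 counts in unmethylated ones. The coordinates fell into at least 1 gene of the RefSeq annotation of GRCh38.p14 for 98.7% of the 3488 selected loci of the series. Of the 535 members that lie in exactly 1 gene, the gene strand was known for 443, and 441 of these lay on it. Members on the opposite strand were given no symbol, which left 533 members with one (497 genes). In the windows above, no single gene marks a site without a symbol.

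Stops at the selected adenosine were more frequent after incubation with the enzyme. Over all 610 members, position 51 held 29304 and 29075 counts in methylated libraries, against 6632 and 8100 counts in unmethylated ones. As a share of all counts of the member sequences, this was 13.99 and 13.54 per 1000 counts in methylated libraries, against 4.17 and 4.55 per 1000 in unmethylated ones. Both methylated libraries lay above both unmethylated ones, and the spread within a group was small beside the gap. The mean shares were 13.8 ± 0.313 and 4.36 ± 0.270 per 1000 (SD, n = 2 each), a ratio of 3.16. An exact two-sided permutation test over the libraries gave p = 0.333, the smallest value that 2 against 2 libraries allow. With every locus weighted alike, over the 504 members with at least 100 counts in every library, the mean shares were 10.1 ± 0.267 and 3.23 ± 0.144 per 1000, a ratio of 3.12.

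The difference was sharp in position. At the nucleotide just 5′ of the adenosine (offset −1) the share was 5.64 ± 0.299 per 1000 in methylated libraries and 3.56 ± 0.276 per 1000 in unmethylated ones, a ratio of 1.59. At offset +1 the shares were 4.47 ± 0.105 and 4.44 ± 0.745 per 1000, a ratio of 1.01. The remaining offsets from −20 to +20 had ratios between 0.942 and 1.31, so the largest ratio was at the selected adenosine and the next largest just before it. It was seldom the tallest position of its transcript, though. It held the most counts of the 141 positions in 7 and 6 member loci in methylated libraries and in 2 and 0 in unmethylated ones, and its median rank was 32 and 34 against 56 and 55.

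Locus by locus, edgeR's quasi-likelihood test was run after the 3 oligonucleotides of a locus were summed, on each position that reached 10 counts in 2 or more libraries. At an adjusted p under 0.05 (Benjamini-Hochberg over all 142938 tested positions), 120 of the 217 tested members were higher in methylated libraries and 0 were lower. In the whole fit 3.7% of positions were called higher and 2.01% lower. At an unadjusted p under 0.05 the counts were 161 higher and 0 lower, and DESeq2 called 90 higher and 0 lower. When a methylated library was left out, the count filter was applied again to the libraries that remained. A member then needed 10 counts in an unmethylated library too, and fewer than 217 members were tested. Members that left the test could not be called, so lower counts of calls there do not show by themselves that calls failed. Without methylated replicate 1 the count of higher members was 51, and without methylated replicate 2 it was 40. Leaving out either unmethylated replicate moved it by less than 1.5 times.

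The test saw only part of the members. Of the 610, 393 missed the count filter and 82 had no count at the adenosine in any library. Of the 217 that passed, 95 had at least 10 counts in both unmethylated libraries, and 41 of these were called higher. All but 4 of the others passed through the methylated libraries alone, so they had to be high in the methylated group. The median log2 fold change of the tested members was 2.17, or 2.02 with the 9 loci that had no unmethylated count set at their lower bound, beside −0.01 over all tested positions. It was 1.07 among the 95 members with at least 10 counts in both unmethylated libraries. Among the 393 untested members, whose median depth was 412 counts in methylated replicate 1 against 4556 counts for tested ones, the pooled share was 2.837 and 2.697 per 1000 in methylated libraries, against 1.11 and 1.24 per 1000 in unmethylated ones. That ratio, 2.35, was in the same direction. In CPM at the adenosine, the count per 1000000 counts of the library, both methylated libraries lay above both unmethylated ones in 302 of all 610 members, below them in 14, and overlapped in 294.

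Members differed widely from each other although the motif was the same. Over the 504 members with at least 100 counts in every library, the share at the adenosine ran from 0 to 106.4 per 1000 in methylated replicate 1, with quartiles of 1.53 and 14.6 and a median of 4.93. In methylated replicate 2 the median was 5.31 per 1000, and in the unmethylated libraries the medians were 1.11 and 1.19 per 1000. More than 20 per 1000 was reached by 88 and 74 of these loci in methylated libraries, against 11 and 13 in unmethylated ones, so a high share was mostly but not only a feature of the methylated group. Replicates ranked the tested loci alike: across the 217 loci the log2 of CPM plus 0.1 correlated with r = 0.938 (rho = 0.902) between the methylated libraries and 0.872 (rho = 0.861) between the unmethylated ones, values that describe loci of shared libraries.

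The member locus with the highest mean CPM in methylated libraries was in CLSTN3, which encodes calsyntenin 3, a membrane protein of synapses. Its adenosine held 1509 and 1326 counts in methylated libraries, against 45 and 53 in unmethylated ones. That was 107.5 ± 10.7 CPM and 4.35 ± 0.0805 CPM (SD, n = 2 each), a log2 fold change of 4.60 ± 0.31 (SE) with an edgeR adjusted p of 2.79e-09. The whole CLSTN3 sequence also had more counts after methylation, 22673 and 21418 against 6273 and 7598, and set against these totals the log2 fold change was 3.18. All 3 oligonucleotides of the locus were called higher on their own.

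COA5, which encodes a factor for the assembly of cytochrome c oxidase, had 902 and 1135 counts in methylated libraries and 14 and 14 in unmethylated ones. The log2 fold change was 5.91 ± 0.35 (edgeR adjusted p = 7.05e-10), and 4.98 against the totals of the sequence. The predicted unpaired probability of this motif was 0.00158, meaning that nearly all predicted folds held it in a stem. This was the largest log2 fold change among the named loci with more than 5 counts in every library, at a site predicted to be paired.

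DHX38, a helicase of pre-mRNA splicing, had 1161 and 1022 counts in methylated libraries, against 63 and 53 in unmethylated ones (log2 fold change 3.97 ± 0.31). MCM3AP, a protein that links transcription to mRNA export, had 1183 and 949 counts against 58 and 99 (3.52 ± 0.31). CREBZF, a leucine zipper transcription factor, had 1208 and 931 counts at its site at chr11:85664577 against 59 and 74 (3.76 ± 0.31). TPRN, whose product taperin is needed for hearing, had 634 and 933 counts against 24 and 22 (4.81 ± 0.34). The site at chr22:20442077, which was given no gene symbol, had 1210 and 1040 counts against 44 and 48 (4.35 ± 0.31). In each of these 5 loci every methylated library exceeded every unmethylated one more than 9-fold in counts, and edgeR adjusted p-values were at most 7.14e-08. Set against the totals of their sequences, the log2 fold changes were lower, at 2.82 for DHX38, 3.43 for MCM3AP, 3.08 for CREBZF, 4.52 for TPRN and 3.91 for the site at chr22:20442077. SLC35F2, a solute carrier, combined a high level with a smaller change: 1024 and 1041 counts against 166 and 191, or 78.3 ± 0.263 CPM and 15.9 ± 0.0319 CPM, a ratio of 4.94 (edgeR adjusted p = 5.44e-06).

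ARFGAP1, an activator of the GTPase activity of ARF1, was the exception among the abundant loci. Its adenosine held 950 and 1073 counts in methylated libraries and 668 and 850 in unmethylated ones, which in CPM is 76.7 ± 5.96 and 67.2 ± 4.91. The log2 fold change was 0.16 ± 0.25 (edgeR adjusted p = 0.814), although 1 of its 2 tested oligonucleotides was called higher on its own. With 1518 counts, this locus alone supplied 10.3% of all unmethylated counts at member adenosines, and without it the pooled ratio of the members was 3.39. Its share of the sequence was 106.4 and 83.8 per 1000 with enzyme and already 72.9 and 79.6 per 1000 without it.

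Several of the largest differences rested on few unmethylated counts, and their size is known only within wide limits. In SON, a protein of nuclear speckles, the site at chr21:33551606 had 8.24 and 10.4 CPM in methylated libraries against 0.286 and 0 CPM (3 and 0 counts), a ratio per library total of 69.99 (95% exact counting interval 23.7 to 341.7). CDK5R1, which encodes the p35 activator of CDK5, had 46 and 59 counts against 0 and 1, a ratio of 89.6 (15.7 to 3573). HARS2, the mitochondrial histidyl-tRNA synthetase, had 81 and 55 counts against 2 and 1, a ratio of 38.7 (12.96 to 190). BMS1, a GTPase of ribosome assembly, had 25 and 50 counts against 1 and 0, a ratio of 64.01 (11.1 to 2562), and MTMR1, a myotubularin-related phosphatase, had 37 and 20 against 0 and 1, a ratio of 48.7 (8.39 to 1955). The site at chr7:27165420, given no gene symbol, had 149 and 75 counts against 4 and 0, with a log2 fold change of 5.48 ± 0.63. All 6 were called higher by edgeR, with adjusted p-values of at most 0.000477, and these intervals cover counting error only. The whole SON sequence held 2307 and 3038 counts in methylated libraries against 673 and 764, and set against these totals its log2 fold change was 4.41 in place of 5.99. For the other 5 loci that value lay between 4.74 and 5.70.

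A further 9 members were called higher with no unmethylated count at all, so that only a lower bound exists, set here against a floor of 3 counts per library. RARG, a retinoic acid receptor, had 5.26 and 8.14 CPM in methylated libraries and was at least 25.0-fold higher (edgeR adjusted p = 3.18e-07). ACTG1, a cytoplasmic actin, had 59 and 48 counts (at least 15.2-fold). KCTD11 had 25 and 49 counts (at least 10.5-fold) and EMD, the inner nuclear membrane protein emerin, had 11 and 43 (at least 7.62-fold). The bounds were 3.83 for MRPL43, 3.54 for TRIAP1, 3.26 for DNAJB1 and 2.97 for CALR. All these bounds are relative to library totals, and bounds against the totals of the sequences were not computed. The whole sequences of these loci also held more counts in methylated libraries. For RARG these were 4234 and 5702 against 2321 and 2652. The bounds therefore do not separate the adenosine from the rest of its sequence. Those named were listed after their counts were seen.

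At the other end, 18 tested members had a negative log2 fold change and none passed the test. ITM2B, a membrane protein, had 29 and 23 counts in methylated libraries and 42 and 27 in unmethylated ones, the lowest value of the set (−0.67 ± 0.42, adjusted p = 0.417). The site at chrX:40172442 was the most abundant of the low group, with 277 and 206 counts against 250 and 315 (−0.47 ± 0.28, adjusted p = 0.39). Set against the totals of its sequence, which held 18221 and 15755 counts against 18586 and 22995, the log2 fold change was 0.06. NICOL1, ZNF764, ZSCAN20 and FBXL19 had between 5 and 23 counts per library and log2 fold changes of −0.63 ± 0.57, −0.48 ± 0.52, −0.40 ± 0.66 and −0.40 ± 0.61.

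The 3 tag copies of a locus are not replicates, since they share sequence and libraries. They show how far values of the same sequence spread between copies, counting error included. Of the single oligonucleotides of members, 336 from 183 loci were tested, and 194 were called higher and 0 lower. In that fit 3.8% of 194723 positions were called higher. The same count filter was applied to each oligonucleotide, so copies with few unmethylated counts had to be high in methylated libraries to be tested. Of the 49 loci with all 3 copies tested, 22 had all 3 called, 7 had 2, 8 had 1 and 12 had none. The log2 fold changes of the 3 copies of a locus spanned a median of 1.28 and at most 3.60.

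Several genes held more than 1 member. In 34 genes there were 2 or more member loci (70 loci), and in 7 of these genes at least 2 were tested. In COA5 the second site, at chr2:98608320, had 41 and 43 counts in methylated libraries against 27 and 24, a log2 fold change of 0.45 ± 0.39 beside the 5.91 of the first. In ING5, a subunit of histone acetyltransferase complexes, the upstream site had 85 and 45 counts against 7 and 13 (2.44 ± 0.47, edgeR adjusted p = 0.0016), while the other had 72 and 86 against 33 and 58 (0.54 ± 0.34, adjusted p = 0.432). In PKD1, which encodes polycystin 1, the site at chr16:2108811 had 222 and 225 counts against 21 and 37 (2.69 ± 0.33, adjusted p = 9.25e-06), and that at chr16:2111525 had 91 and 82 against 48 and 65 (0.36 ± 0.32, adjusted p = 0.617). The difference between the sites of a gene was itself not tested.

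Of the other 4 genes, C15orf39 had both sites called (3.99 ± 1.09 and 1.12 ± 0.28). In CREBZF the second site, at chr11:85664048, had 24 and 16 counts in methylated libraries against 5 and 2 (2.22 ± 0.67, adjusted p = 0.0506). In AGK, acylglycerol kinase, sites 32 nt apart lie on overlapping sequences and gave 4.24 ± 0.60 and 2.08 ± 0.67, the first called. In RNF40 the values were 1.47 ± 0.42, called, and 0.81 ± 0.45, not called. In SON the 2 member sequences lie 120 nt apart and are near copies of each other. The site at chr21:33551486 had only 1 and 1 counts in methylated libraries and 0 and 0 in unmethylated ones, in a sequence with 314 and 495 against 178 and 213 counts, and how reads were assigned between such near copies was not tested.

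Bases outside the motif were not used to choose members, and members were split by the base at each of the 3 positions on either side. Throughout, offsets count from the selected adenosine, so that −4 is position 47, −3 is position 48 and +3 is position 54. For every base at every one of these positions, the pooled share of both methylated libraries lay above that of both unmethylated ones, with ratios from 1.96 to 5.45. Values with loci weighted alike are over members with at least 100 counts in every library, whereas the numbers of members given with a base are before that filter. None of the 24 tests of a base against the other members could pass, because the permutation p over libraries is at least 0.333. Counts of called members per base or combination of bases, given below, are out of tested members only. Most of these passed the count filter through the methylated libraries, so entry to the test itself depended on a high methylated count. Such counts are descriptions and cannot decide whether bases differ. Calls among members that passed in both unmethylated libraries are not given by base.

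Among the bases at −4, A had the largest share after methylation. Over loci weighted alike, the 155 members with A at −4 had 13.4 ± 0.420 per 1000 in methylated libraries and 2.81 ± 0.0568 in unmethylated ones, a ratio of 4.77. Members with C there (187 loci) had 7.87 ± 0.156 and 3.14 ± 0.231 per 1000, a ratio of 2.51. For G and T the ratios were 2.80 and 2.99. With counts pooled, A at −4 had a ratio of 4.81 against 2.56 for all other members, a log2 difference of 0.91 (exact permutation p = 0.333, the smallest possible). Of the tested members with A at −4, 45 of 57 were called higher, against 22 of 61 with C, counts that carry the limit of the filter given above.

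A U at +3 (T in the table) showed the same kind of difference on the 3′ side. The 152 members with it had 12.2 ± 0.173 per 1000 in methylated libraries and 2.81 ± 0.456 in unmethylated ones, with loci weighted alike, a ratio of 4.35. The 190 members with C there had 8.22 ± 0.259 and 3.10 ± 0.149 per 1000, a ratio of 2.65, and those with G or A had ratios of 2.93 and 2.60. Pooled, U at +3 had a ratio of 5.10 against 2.68 for the other members. The edgeR test called 40 of 58 tested members with U at +3, and 28 of 58 with C.

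At −3 C had the lowest ratio. With loci weighted alike, the shares after methylation were 10.2 ± 0.0729 per 1000 for A, 8.49 ± 0.0423 for C, 11.1 ± 0.0951 for G and 9.999 ± 0.739 for T. Without enzyme they were 2.57 ± 0.221 for A, 4.75 ± 0.263 for C, 3.81 ± 0.528 for G and 2.91 ± 0.180 for T. The ratios that follow were 3.97, 1.79, 2.91 and 3.43, and the pooled ratios, 5.45 for A and 1.96 for C, also put C lowest. With counts pooled the methylated shares ranged more widely, between 11.04 for T and 18.3 for A, beside 3.37 for A to 5.85 for C in unmethylated libraries. Only 7 of 22 tested members with C at −3 were called higher, against 36 of 56 with A.

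Combining −3 and +3 gave the widest range. The 48 members with A at −3 and U at +3, such as CLSTN3, DHX38 and the RNF40 site at chr16:30768314, had a pooled share of 23.3 ± 0.290 per 1000 in methylated libraries and 2.98 ± 0.228 in unmethylated ones, a ratio of 7.82. The 25 members with C at both had 7.63 ± 0.385 and 8.07 ± 0.0116 per 1000, a ratio of 0.945. Among these, 0 of 7 tested members were called, and the median log2 fold change of the tested ones was 0.36. The sites of PKD1 at chr16:2111525 and at chrX:40172442 belong to them. The other combinations with at least 10 loci lay between 1.44 and 6.06. Among them, the 16 members with C at −3 and U at +3 had a ratio of 5.01. These are pooled ratios, in which loci with many counts weigh most, and combinations were not compared with loci weighted alike.

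At −5, U had the highest ratio and C the lowest in both weightings, 4.30 and 2.71 with loci weighted alike and 5.37 and 2.35 with counts pooled. With loci weighted alike, however, U had the lowest share after methylation, 9.12 per 1000 against 10.71 for C. Without enzyme these shares were 2.12 and 3.96, and the differences between the groups were close, 6.998 for U and 6.75 for C. With counts pooled the shares after methylation were 14.23 for U and 13.31 for C. At +4 the ratios were 2.57 for A, 2.90 for C, 4.10 for G and 3.06 for T with loci weighted alike. At +5 the ratios with loci weighted alike lay between 2.80 and 3.45, closer together than the pooled values of 2.33 to 4.26.

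The 422 loci of the same class with GGACA or GGACC were split in the same way, as sequences that share the libraries but not the members. There A at −4 also had the highest ratio, 5.45 with loci weighted alike (16.1 ± 0.541 against 2.95 ± 0.310 per 1000), and C the lowest, 2.81. At +3 the ratios were 5.44 for U, 5.01 for G, 3.38 for A and 2.95 for C. U was thus again highest in ratio, but G was close to it, unlike in the members. The shares after methylation had another order, 17.98 per 1000 for G, 14.82 for A, 10.63 for U and 8.92 for C. In the members U had the highest of these shares. Without enzyme U had the lowest share of these loci, 1.95 per 1000, so its lead was one of ratio only. At −3 the ratios were 4.50 for A, 3.60 for C, 3.59 for G and 4.23 for T, so that C did not stand apart there as it did in the members.

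The GC content of the 18 nt on each side of the motif was compared after its correlation with the fold change had been seen. Members under 50% GC had a pooled share of 16.3 ± 0.596 per 1000 in methylated libraries and 2.48 ± 0.267 in unmethylated ones, a ratio of 6.55. Those from 50% to 60% had a ratio of 5.07, those from 60% to 70% of 2.40, and the 73 loci at 70% or more had 9.68 ± 0.0513 against 6.28 ± 0.427 per 1000, a ratio of 1.54. With loci weighted alike the ratios were 4.57, 4.19, 2.59 and 1.88. In that weighting the methylated shares lay between 9.27 and 11.2 per 1000 in all 4 bins, whereas the unmethylated ones ran from 2.03 ± 0.0290 to 4.94 ± 0.0539. Across the 217 tested loci the log2 fold change correlated with GC content at r = −0.399 (rho = −0.406), a description of loci that share libraries.

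Flanking bases and GC content moved together. Members with A at −4 had a median GC content of 52.8%, and those with C or G there 61.1% and 63.9%. Within members under 60% GC, A at −4 had a ratio of 6.79 and the other bases 3.59, with loci weighted alike. Within members at 60% GC or more the ratios were 3.15 and 2.18. C at −3 had 2.26 against 4.47 for the other bases in the first of these groups and 1.69 against 2.59 in the second, and U at +3 had 5.18 against 3.90 and 3.17 against 2.22. Each of these 3 differences kept its direction on both sides of 60% GC, although C at −3 under 60% GC rests on 18 loci. GC content still varied within each side, so this split cannot tell flanking bases and GC content apart, and their separate contributions were not tested.

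Predicted pairing of the motif, the mean unpaired probability of positions 49 to 53, gave an order that depended on the measure. In the 160 members under 0.25 the pooled share was 9.63 ± 0.511 per 1000 in methylated libraries and 1.93 ± 0.204 in unmethylated ones. In the 45 members at 0.75 or more it was 24.4 ± 0.487 and 14.3 ± 1.09 per 1000, so both groups had more stops at motifs predicted to be open. The ratio was 5.00 in the most paired bin, 3.69 and 2.83 in the next ones, and 1.70 in the most open bin, a log2 difference of 1.55 between the ends (exact permutation p = 0.333). The most open bin holds ARFGAP1 (0.792), the locus with the most unmethylated counts. With loci weighted alike the shares were 7.51 and 1.87 per 1000 in the most paired bin and 16.4 and 7.83 in the most open one. The ratios in that weighting were 4.02, 3.48, 2.74 and 2.10. However, the difference in share between the groups was 5.64 ± 0.322 per 1000 in the most paired and 8.59 ± 0.298 in the most open bin. Between these ends, ratio and difference thus ran in opposite directions. The test called 25 of 50 members in the most paired bin and 8 of 17 in the most open one.

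Other motifs in the same sequence were common among the members. With no other GGAC in the 141 nt the pooled ratio was 3.07 (280 loci), with 1 it was 3.46 (211 loci), and with 2 or more it was 2.76. For other DRACH motifs the ratios were 3.70 for none, 2.33 for 1 and 3.58 for 2 or more. The adenosines of those other DRACH motifs, 1477 sites in all, also had more counts after methylation, 3476 ± 35.6 CPM and 1390 ± 3.06 CPM in total, a ratio of 2.50. Of 433 tested, 176 were called higher and 0 lower, beside 3.7% higher and 2.01% lower over all tested positions. The count filter limits these calls too, since sites with few unmethylated counts had to be high in methylated libraries to be tested. The further GGACT sites among them had 695 ± 28.9 CPM and 281 ± 21.0 CPM, a ratio of 2.47, with 36 of 60 tested sites called higher. That ratio was 4.52 for the 48 sites at positions 1 to 50 and 2.38 for the 94 sites at positions 52 to 141. In CPM the ratio at the selected adenosines was 3.39.

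Set beside the loci most like them, the members were neither the highest nor the lowest. The 251 m6A-class loci with GGACA had a pooled share of 16.5 ± 0.920 per 1000 in methylated libraries and 4.22 ± 0.234 in unmethylated ones, a ratio of 3.91. The 171 with GGACC had 17.7 ± 0.195 and 3.52 ± 0.663 per 1000, a ratio of 5.03, which was 3.31 without the locus with the most counts. The 40 GGACT loci that had been found unmodified in the cells had 5.75 ± 0.324 and 2.82 ± 0.239 per 1000, a ratio of 2.04. The log2 differences of the members from these sets were −0.31, −0.67 and 0.63, each with an exact permutation p of 0.333, the smallest possible. With loci weighted alike the ratios were 3.12 for members, 4.19 for GGACA, 3.73 for GGACC and 2.39 for unmodified-class GGACT, the last over 26 loci.

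Members from 3 groups of genes were counted, although in this assay the RNA carries only the sequence of a gene and not its function. Their counts stand beside 120 called higher of 217 tested members. Of 19 loci in zinc finger genes, 8 were tested, 3 were called higher and 0 lower. The called ones were in KLF16 (31 and 32 counts against 0 and 3), ZNF2 (12.6 ± 2.42 CPM against 4.14 ± 1.16 CPM) and ZNF775 (24 and 15 against 1 and 2). Of 18 loci in chromatin genes, 9 were tested, 5 were called higher and 0 lower. Among them were the corepressor gene BCOR (76 and 68 counts against 5 and 3), the histone demethylase gene KDM5B (20 and 39 against 1 and 2) and TET3, which encodes a 5-methylcytosine oxidase (66 and 74 against 18 and 17).

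Of 19 loci in ubiquitin pathway genes, 8 were tested, 3 were called higher and 0 lower: FBXO5, an inhibitor of the anaphase-promoting complex (9.49 ± 2.33 CPM against 1.36 ± 0.308 CPM), FBXW4 (19 and 23 against 3 and 1) and RNF40, a ligase for histone H2B (6.51 ± 2.63 CPM against 2.24 ± 1.54 CPM). The calls of ZNF2 and TET3 were lost without methylated replicate 2, that of FBXW4 without unmethylated replicate 2, and that of RNF40 in 4 alternatives, DESeq2 among them. The pooled ratios of the lists were 2.78, 1.58 and 3.19, and their medians of the log2 fold change were 1.24, 2.09 and 1.29, beside 2.17 for all tested members. EEF2K, which encodes the kinase of elongation factor 2, was the clearest call with C at −3, with 424 and 314 counts in methylated libraries against 19 and 35 (3.52 ± 0.35, edgeR adjusted p = 3.18e-07).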

How the data were processed

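Synthetic RNA was measured by miCLIP2 in 2 methylated and 2 unmethylated libraries. The authors deposited raw counts per oligonucleotide, library and nucleotide, over 141 positions, without normalization. Tools listed without a role in the processing notes of the submitters are bedtools 2.27.1, FastQC 0.11.8 and STAR 2.7.3a. How duplicate reads were treated and the build of the coordinates are not stated by any source used here.

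From the counts, the 3 oligonucleotides of each sequence were summed and tested with edgeR 4.0.16 in R 4.3.3 (TMM scaling, group as the only term, at least 10 counts in at least 2 libraries). Standard errors are the log2 fold change over the square root of F. Shares are counts at position 51 per 1000 counts of the same sequences, pooled or averaged over loci with at least 100 counts in every library. Pairing was predicted with ViennaRNA 2.7.2 and summaries were made in Python 3.11.15. Between replicates, totals of oligonucleotides differed beyond counting noise (chi-square per degree of freedom 18.7 for methylated and 20.7 for unmethylated libraries). Beyond the word duplicate, the labels do not say that replicates were separate reactions, so the spread behind p-values is that between these libraries and can be technical alone. Intervals and floors cover counting error only.

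Named loci were the 8 largest rises with an unmethylated count and groups apart, the 8 highest in mean CPM, the 6 lowest fold changes, the clearest rise for each base at −3 and +3, and at most 3 rises of each list of gene symbols. Pairs within a gene were added later. Members, lists and rules were chosen with earlier results of these data known. Alternatives covered DESeq2 1.42.0, scaling, count filters, weights of loci, a shorter folded window, a replicate block and leaving out each library. No windows were printed for the 19 members on chromosome 8. One locus among those without an unmethylated count is not reported here.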

Additional observations from a re-analysis of the deposited data

How the results depend on the processing

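No member was called lower under any of the 11 alternatives, and no fold change of a named locus that was called in either fit changed sign. Of 298 alternative values for the 31 named loci, 291 kept their side of the threshold, and 7 calls were lost, in ZNF2, TET3, FBXW4 and RNF40. Under the remaining combinations the locus was not tested or had no adjusted p, as for SON, CDK5R1, BMS1 and HARS2 without either methylated library. As a percentage of all 610 members, those called higher were 19.7%. This base includes members that were not tested, so the percentage falls when a setting tests fewer of them. At 50 counts fewer members were tested than in the main fit, but a larger part of the tested ones was called. A filter of at least 50 counts gave 11.5%, and leaving out 1 library gave 6.56% to 20.7%. With 1 methylated library left, its spread is taken to be that of the unmethylated ones, and fewer members passed the count filter. The replicate block gave 20.7% and a median of 2.13. Same-numbered libraries did not deviate together (correlation −0.0781), so the block has no basis in the design. The median of 2.17 became 1.99 against sequence totals, 2.46 at 50 counts and 1.07 to 2.268 without 1 library.

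The pooled ratio of 3.16 was 3.39 with library totals, 3.39 without the most abundant locus and 4.51 as the median over tested loci. The flank differences below set the highest against the lowest pooled base, chosen from the ratios, so they are descriptions. As log2 differences they were 1.19 at −5 (T highest, C lowest), 1.18 at −4 (A highest, T lowest), 1.47 at −3 (A highest, C lowest), 1.29 at +3 (T highest, C lowest), 0.46 at +4 (G highest, A lowest) and 0.87 at +5 (G highest, A lowest). With library totals they were 1.34, 1.31 and 1.40 at −5, −4 and +3. Without the top locus of each set they were 0.82, 0.51, 1.64, 0.96, −0.055 and 0.45 in the order above, with loci weighted alike 0.67, 0.67, 1.15, 0.71, 0.67 and 0.060, and as medians over tested loci 1.34, 0.80, 1.80, 1.16, 0.76 and −0.59. The orders at +4 and +5 thus turned in 1 alternative each.

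The differences from m6A-class loci with GGACA, from those with GGACC and from unmodified-class GGACT loci (−0.31, −0.67 and 0.63) were −0.48, 0.037 and 0.78 without the top locus, −0.42, −0.25 and 0.39 with loci weighted alike, and −0.029, −0.08 and 0.95 as medians. With library totals that from GGACA was −0.22. For pairing, 1.55 became 1.67 with library totals, 1.04 without the top loci, 0.94 with loci weighted alike, 0.33 as medians and 0.93 with an 81-nt window. For GC content, 2.09 became 2.43, 1.78, 1.28 and 2.69 under the first 4 of these. For 2 or more other DRACH motifs over none, −0.044 became 0.13, 0.077, 0.084 and 0.88, and lay between −0.11 and 0.023 without 1 library, so it has no stable sign. For other GGAC motifs, −0.16 became −0.67 without the top loci, −0.56 with loci weighted alike and −1.18 as medians. The causes of these shifts were not tested.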
